A study of Mus musculus with 35 samples.

Results

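The clustered protocadherin locus of the mouse lies on chromosome 18 and was taken here as the 2-kb tiles between positions 36900001 and 38000000 of GRCm38. These were 550 of the 1362779 tiles in the deposited accessibility matrix. The interval holds 58 annotated protocadherin genes in 3 clusters: 14 of Pcdha (chr18:36930285-37188897, 130 tiles), 22 of Pcdhb (chr18:37264998-37521419, 129 tiles) and 22 of Pcdhg (chr18:37661775-37841873, 91 tiles), 1 of which, Pcdhgb8, is annotated as a pseudogene. The other tiles lie before, between and after the clusters. The tiles were taken by position, with no cut on their accessibility, but earlier results of these data were known when the interval was chosen.

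Clustered protocadherins are cell adhesion proteins best known from neurons, where single cells express different small sets of them and like sets mediate self-recognition. Each variable exon of Pcdha and Pcdhg has its own promoter and is spliced to constant exons at the end of its cluster, whereas each Pcdhb gene is a single coding exon. The promoters are CpG-rich, bind CTCF when active, and are silenced by DNA methylation, which DNMT enzymes write and TET enzymes remove by oxidation. DNA methylation itself was not analysed here.

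ATAC-seq, which reads open chromatin from the cuts of the Tn5 transposase, was made in 35 libraries of mouse embryonic stem cells at D0, grown in 2i/Lif, and of cells on the way to epiblast-like cells at D1 and D2. TET_KO cells lack Tet1, Tet2 and Tet3 and were set beside their parental line TET_WT. DNMT_KO cells lack Dnmt1, Dnmt3a and Dnmt3b and were set beside DNMT_WT, their own parent. A line on a given day is a group; 11 of the 12 groups had 3 libraries, and TET_KO at D2 had 2. Nothing in the labels says whether a line is 1 clone or whether replicates were separate cultures, so p-values measure the spread between these libraries.

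Libraries held 4172670 to 23686796 reads in tiles, and 1362 to 10150 in the interval, or a median of 2 to 15 reads per tile. At D0, TET_WT libraries were deeper (10350700 to 23686796 reads) than TET_KO libraries (6036825 to 9841851), without overlap. The part of depth in the differences between these lines was not tested. The D1 libraries appear to have been processed differently: the reads over tiles summed to 2.03 to 2.05 times the authors' library total, against 1.02 to 1.15 at D0 and D2, and mitochondrial reads (5.62 to 46.8%) were found at D1 only. D1 is therefore compared between lines only, and day and processing cannot be told apart for D1 against D0. The TET and DNMT families also differed in this ratio at D0 and D2 and are not compared with each other. Of the markers of the labelled cell types, the start tile of Tfcp2l1, a naive pluripotency factor, fell from D0 to D2 in 3 of the 4 lines (-1.16 in DNMT_WT to -1.42 in DNMT_KO on the log2 scale), and that of Utf1, an epiblast-like marker, rose in 3 (1.24 in TET_WT to 1.56 in DNMT_KO; limma, adjusted p at most 0.0462). Not all listed markers moved this way from D0 to D2. The 5 naive starts that could be placed ran from -1.20 to -0.29 in TET_WT and -1.15 to 1.12 in TET_KO. They ran from -1.16 to 0.08 in DNMT_WT and -1.42 to 0.35 in DNMT_KO. The 4 epiblast-like starts placed ran from -0.38 to 0.92 in DNMT_WT and lay above 0 in the other lines. None of the 7 neural and 3 fibroblast marker starts that could be placed was called in any of the 10 comparisons. The background on chromosome 18 lay -0.26 to 0.09 from that of all autosomes on the log2 scale, lowest in DNMT_KO at D1.

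The interval was neither uniformly closed nor uniformly open. Its tiles had a median of -1.50 for the mean log2 RPKM over the 35 libraries (RPKM, reads per kb scaled to library size), close to the -1.45 of all tiles of the autosomes and X, yet 21.3% of them were among the highest 10% of all tiles (at or above -0.55). The clusters differed. Pcdha and Pcdhb had low medians, of -1.85 and -1.97, while 11.5% and 10.9% of their tiles were in the highest 10%. Pcdhg had a median of -0.49, with 52.7% of tiles in the highest 10%. Of the flanks, the 15 tiles upstream of Pcdha held none of the highest 10%, the gap between Pcdha and Pcdhb held 5.41%, the gap between Pcdhb and Pcdhg 10.1%, and the stretch after Pcdhg 39.2%. No read was found in 10 tiles, and 8 had reads at D1 only.

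**Figure D1:**
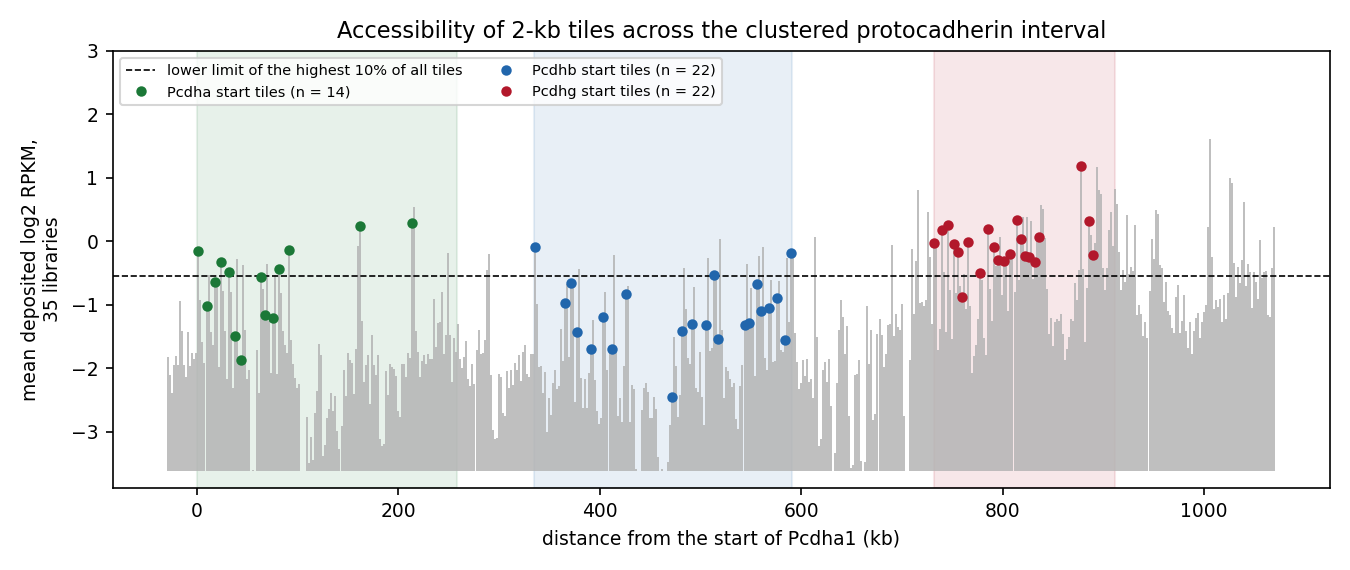
Mean deposited log2 RPKM over 35 libraries (vertical axis) of each 2-kb tile (grey bars, drawn up from the level of an empty tile) by its distance in kb from the start of Pcdha1. Shading marks the Pcdha, Pcdhb and Pcdhg clusters from left to right, points mark the tiles that hold a gene start, and the dashed line is the lower limit of the highest 10% of all tiles (-0.55). Start points of Pcdhg lie above the line in 21 of 22 cases, against 3 of 22 in Pcdhb.

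Start tiles were more open than the other tiles of each cluster, with the widest gap in Pcdha. Medians of start and other tiles were -0.52 and -1.93 in Pcdha, -1.24 and -2.13 in Pcdhb, and -0.07 and -0.75 in Pcdhg. Each of the 58 starts fell in a tile of its own. Of these start tiles, 7 of 14 in Pcdha, 3 of 22 in Pcdhb and 21 of 22 in Pcdhg were in the highest 10%, against 6.90%, 10.3% and 39.1% of the other tiles of the same cluster. For scale, 66.1% of 16404 start tiles of protein-coding genes, the interval not excluded, were in the highest 10%, with a median of 0.32. By these medians the start tiles were more open than the pooled other tiles of their cluster. The tile just after the start was nevertheless higher than the start tile in 38 of 58 genes. Most protocadherin start tiles were less open than the median coding start tile. Only the start tiles of Pcdhgc3, Pcdhgb6 and Pcdhgc4 reached the 50th percentile of coding starts, Pcdhgc4 exactly at it.

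The tiles on either side of the start differed. The tile before the start had medians of -1.88 in Pcdha, -1.91 in Pcdhb and -0.81 in Pcdhg, and the tile after it -0.70, -0.56 and -0.34. In Pcdhb, the tile after was higher than the start tile in 21 of 22 genes. Over all clusters this was so for 28 of the 31 genes that begin past the midpoint of their tile and for 10 of the 27 that begin before it. In Pcdhb it was so in 8 of the 9 that begin before the midpoint, with a median of -0.63 in the tile after. Taking the higher of the start tile and the next, the medians were -0.37 in Pcdha, -0.47 in Pcdhb and 0.05 in Pcdhg. Among genes that begin before the midpoint, the start tile had medians of -0.39 in Pcdha, -0.89 in Pcdhb and 0.08 in Pcdhg. The part of tile position in these levels was not tested. Of the 58 genes, 49 were higher in the start tile than in the tile before it. With the higher of the start tile and the next it was 55, a choice that favours higher values.

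**Figure D2:**
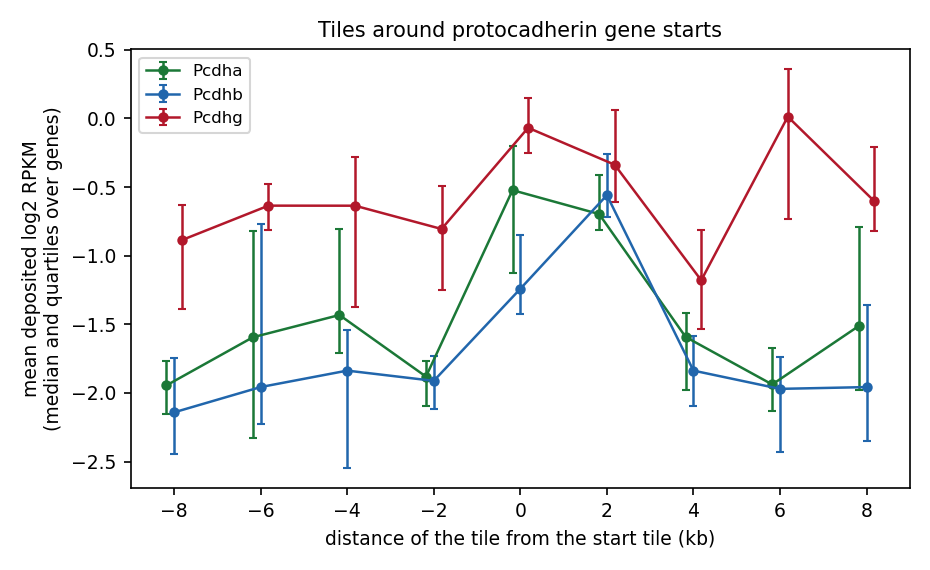
Median of the mean deposited log2 RPKM over the genes of each cluster (bars, quartiles) in tiles up to 8 kb to either side of the start tile. The Pcdha curve is highest in the start tile (-0.52), the Pcdhb curve 1 tile later (-0.56), and Pcdhg lies above both in the start tile (-0.07).

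In the Pcdha cluster the most open starts were those of the C-type genes at the end of the row, Pcdhac2 (0.29) and Pcdhac1 (0.25), whose promoters are chosen less at random than those of the alternate genes. The tile after the start of Pcdhac2 was the highest of the cluster (0.53). Pcdha12 (-0.14) and Pcdha1 (-0.16), the last and the first of the alternate genes, followed. The start tiles of the genes between them ran from -1.88 in Pcdha7 to -0.33 in Pcdha4. The start of Pcdha7 lies 1810 bases into its tile, and the tile after it had -0.38.

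In the Pcdhb cluster the start tiles of the first and the last gene were the highest. The start tile of Pcdhb1 had a mean of -0.09 and that of Pcdhb22 -0.19, and then came Pcdhb13 (-0.54) and Pcdhb3 (-0.65). The other 18 lay between -2.46 in Pcdhb9 and -0.67 in Pcdhb17. This order holds for start tiles only. Taking the higher of the start tile and the next, Pcdhb14 had 0.03, Pcdhb1 and Pcdhb18 -0.09, and Pcdhb22 -0.19. Pcdhb9 had 82 reads in its start tile over all 35 libraries, the fewest of the 58, against 427 for Pcdhb1.

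In the Pcdhg cluster, where genes of the a and b types alternate before 3 C-type genes, the start of Pcdhgc3 was the most open of the locus, with a mean of 1.18, 970 reads in all and the 75th percentile of coding starts. Next among start tiles were those of Pcdhgb6 (0.33), Pcdhgc4 (0.32), a gene known for its role in the survival of neurons, and Pcdhga3 (0.25). Taking the higher of the start tile and the next, Pcdhga12 had 0.57, Pcdhgb7 0.38 and Pcdhga10 0.37. The start tile of Pcdhga1, the first gene, had -0.02 and that of Pcdhgc5, the last, -0.22. The lowest was Pcdhgb2 at -0.89, which begins 1858 bases into its tile. It was the 1 start of the cluster outside the highest 10% of tiles.

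Group means of single starts spread widely, less so in Pcdhgc3. Levels per group are given as the quantile-normalised log2 values of the fit. Their ranges run over families and days that appear to have been processed differently. Pcdhgc3 ranged from 0.79 ± 0.42 (SD, n = 3) in DNMT_KO at D0 to 1.54 ± 0.25 (SD, n = 3) in TET_KO at D1, and every library of every group was above 0.30. The start tile of Pcdhac2 ranged from -0.35 ± 0.96 (SD, n = 3) in DNMT_WT at D0 to 1.03 ± 0.21 (SD, n = 2) in TET_KO at D2. The start tile of Pcdhgc4 ranged from -0.27 to 0.95 and that of Pcdhgb6 from 0.01 to 0.71. Pcdhb9 lay between -3.23 and -1.76 as group means. The spread between group means was widest in Pcdhb5 (2.81), from -3.06 ± 0.50 (SD, n = 3) in DNMT_KO at D0, with 2 reads in 3 libraries, to -0.25 ± 0.27 (SD, n = 3) in TET_KO at D1. The median SD within a group was 0.65 for that tile and 0.28 for Pcdhgc3.

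**Figure D3:**
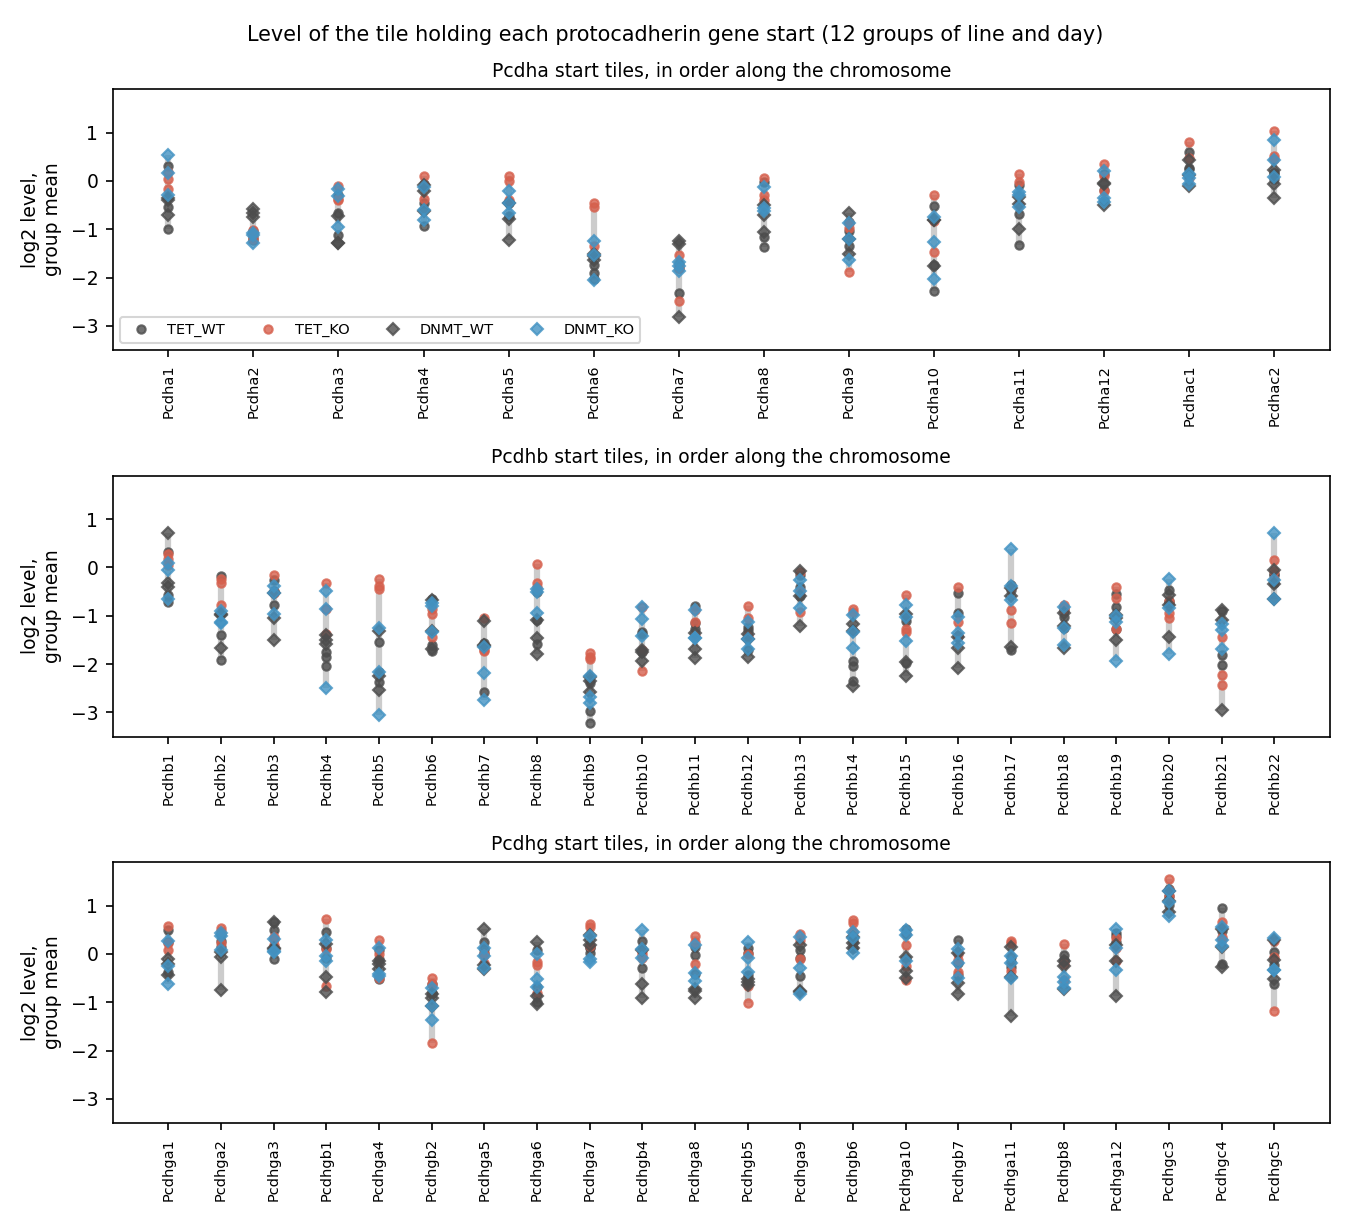
Quantile-normalised log2 level (vertical axis) of the tile holding each protocadherin start, in order along the chromosome. Each point is the mean of 1 group of line and day, so a line has 3 points for D0, D1 and D2, and grey bars join the lowest and highest group. Pcdhgc3 runs from 0.79 to 1.54, a range that overlaps that of Pcdhac2 (-0.35 to 1.03), and Pcdhb5 spreads from -3.06 to -0.25.

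The interval also holds other genes. Taf7, which encodes a subunit of TFIID, and Slc25a2, a mitochondrial ornithine carrier, lie between Pcdhb and Pcdhg. The tile at the upper end of Taf7 had a mean of 0.80 and that of Slc25a2 -0.13. After Pcdhg come Diaph1, a formin that nucleates actin, with 1.61 at its upper end, the highest tile of the interval, and Hdac3, the histone deacetylase of the NCoR and SMRT corepressors, which shares a tile with Rell2 (0.99). The end tiles of Fchsd1 and Arap3 had 0.61 and 0.22. The tile with the shared ends of the Pcdhg genes had 0.81. The start tiles of most protocadherin genes were therefore below these neighbours, and that of Pcdhgc3 was above all of them except Diaph1.

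The Pcdha cluster as a whole was compared by the log2 of its reads per kb, scaled to the reads of the library. At D0 the 3 TET_WT libraries had -1.99, -2.03 and -1.78 and the 3 TET_KO libraries -1.55, -1.71 and -1.38. Every TET_KO library was higher, and the means differed by 0.38, or 1.31-fold, with a pooled SD of 0.15. At D2, TET_WT had -1.70, -1.73 and -1.67 and TET_KO -1.65 and -1.48. These means differed by 0.13, with values between 0.05 and 0.21 when a library was left out, 0.054 being without the third TET_KO library and 0.21 without the first. The groups overlapped at D2 once levels were set relative to background tiles.

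At D1 the Pcdha level was -1.57 ± 0.02 (SD, n = 3) in TET_WT and -1.56 ± 0.14 (SD, n = 3) in TET_KO. In the DNMT family the levels of the whole cluster overlapped on every day. DNMT_WT had -1.92 ± 0.15, -1.70 ± 0.28 and -1.62 ± 0.13 at D0, D1 and D2, and DNMT_KO -1.70 ± 0.12, -1.84 ± 0.17 and -1.73 ± 0.19 (SD, n = 3 each). From D0 to D2 the level of the TET_WT libraries was higher by 0.23 without overlap, and DNMT_WT differed by 0.30 with overlap. In TET_KO and DNMT_KO the differences were -0.02 and -0.03.

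The 14 Pcdha start tiles, summed, differed between the DNMT lines at D0. They had -1.06, -0.90 and -0.96 in DNMT_WT and -0.62, -0.48 and -0.47 in DNMT_KO, a difference of 0.45 (1.36-fold, pooled SD 0.08) without overlap, also relative to background tiles (0.48) and as deposited (0.40). In DNMT_KO they had -0.66, -1.01 and -0.83 at D2, which was 0.31 below D0 on the log2 scale (difference -0.31) and without overlap, also relative to background tiles (-0.37) but not as deposited (-0.21). In the TET lines the start tiles differed by 0.42 at D0, with overlap.

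The Pcdhb cluster was higher in TET_KO than in TET_WT at D0 and at D2. At D0, TET_WT had -1.95, -1.81 and -1.79 and TET_KO -1.40, -1.53 and -1.58, a difference of 0.34, or 1.27-fold, with a pooled SD of 0.09. At D2, TET_WT had -1.89, -2.02 and -1.83 and TET_KO -1.61 and -1.52, a difference of 0.35. On both days no TET_KO library overlapped with TET_WT, also relative to background tiles (0.33 and 0.30) and as deposited (0.40 and 0.42).

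At D1 the Pcdhb groups overlapped, with -1.69 ± 0.01 (SD, n = 3) in TET_WT and -1.62 ± 0.10 (SD, n = 3) in TET_KO. DNMT_WT at D0 had Pcdhb levels of -2.19, -2.09 and -2.06, against -1.63, -1.82 and -1.91 in DNMT_KO, a difference of 0.33 (1.25-fold, pooled SD 0.11) without overlap. At D2 the 2 lines overlapped, with -1.71 ± 0.12 in DNMT_WT and -1.63 ± 0.17 in DNMT_KO (SD, n = 3 each). From D0 to D2 the level in DNMT_WT was 0.40 higher (1.32-fold), again without overlap, whereas the other 3 lines overlapped between days. The summed Pcdhb start tiles had -1.64 ± 0.17 in DNMT_WT and -1.14 ± 0.17 in DNMT_KO at D0 (SD, n = 3 each), without overlap. In DNMT_WT at D2 they had -1.18 ± 0.13 (SD, n = 3), above D0 without overlap, and the DNMT lines overlapped at D2. In TET_WT and TET_KO at D0 they had -1.30 ± 0.04 and -1.02 ± 0.12 (SD, n = 3 each), without overlap.

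The Pcdhg cluster was higher in DNMT_KO than in DNMT_WT at D0 and D2. At D0, DNMT_WT had -0.90, -0.68 and -0.71 and DNMT_KO -0.41, -0.43 and -0.37, a difference of 0.36, or 1.28-fold, with a pooled SD of 0.09. At D2 the difference was 0.17, from -0.69, -0.55 and -0.57 to -0.40, -0.47 and -0.42, and no library overlapped on either day. The levels of the other tiles of the cluster differed by 0.42 at D0 and 0.18 at D2, without overlap, while those of the summed 22 start tiles overlapped (0.20 and 0.15). At D1, DNMT_WT and DNMT_KO overlapped, at -0.69 ± 0.06 and -0.64 ± 0.17 (SD, n = 3 each).

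In the TET family the Pcdhg levels at D0 were -0.48 ± 0.09 in TET_WT and -0.44 ± 0.09 in TET_KO (SD, n = 3 each), which overlapped, as they did at D1 (-0.52 in both). At D2, TET_KO was lower: TET_WT had -0.54, -0.41 and -0.28 and TET_KO -0.62 and -0.56. The difference was -0.18, with a pooled SD of 0.11. TET_KO was also lower at D2 than at D0, by 0.15 on the log2 scale and without overlap. These cluster levels are sums over chosen tiles and carry no test. For whole clusters the larger of the differences without overlap amounted to 1.25-fold to 1.32-fold, and some differences of summed start tiles were larger.

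**Figure D4:**
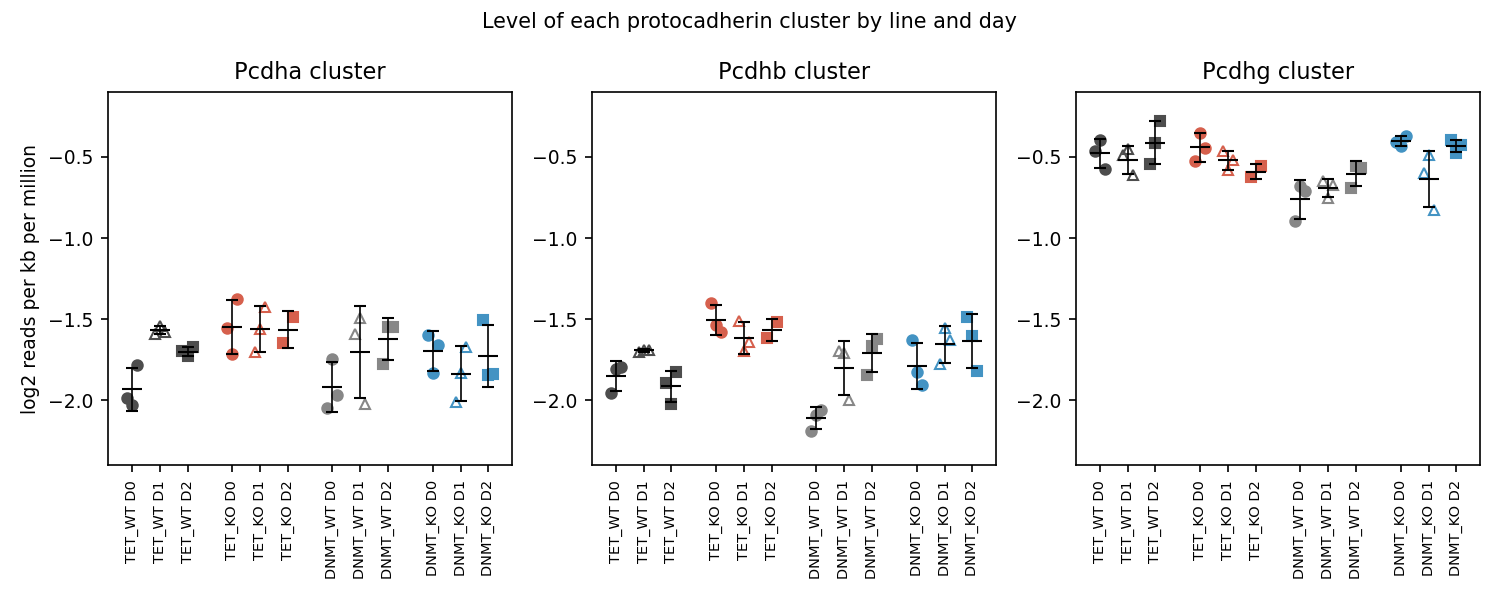
Log2 RPKM of each library, from recovered reads (points; circles D0, open triangles D1, squares D2) summed over the tiles of the Pcdha, Pcdhb and Pcdhg clusters, with the mean and SD of each group in black. The Pcdhg cluster lies above the other clusters in every group. The D0 libraries of TET_KO lie above those of TET_WT in Pcdha and Pcdhb, and the D0 libraries of DNMT_KO lie above those of DNMT_WT in Pcdhb and Pcdhg.

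The stretches beside the clusters differed as well. In the gap between Pcdha and Pcdhb (37 tiles), TET_WT at D0 had -2.48, -2.20 and -2.35 and TET_KO -1.77, -1.74 and -1.85. This difference of 0.56 (1.47-fold, pooled SD 0.11), without overlap, was larger than that of either cluster. At D2 the TET lines overlapped in this gap (0.03), and the DNMT lines overlapped at D0 and D2 (-0.15 and -0.13). From D0 to D2 the gap was higher without overlap by 0.42 in TET_WT (overlapping as deposited), 0.56 in DNMT_WT and 0.58 in DNMT_KO, and TET_KO differed by -0.11 with overlap. In the gap between Pcdhb and Pcdhg the lines overlapped at D0 and D2. Over the 10 comparisons, groups lay apart in 3 (all higher) for Pcdha, 4 (all higher) for Pcdhb, and 2 higher and 2 lower for Pcdhg. For the gap between Pcdha and Pcdhb it was 4 higher and 1 lower, and after Pcdhg 3 higher and 1 lower. Groups of 2 or 3 libraries can lie apart without a difference between lines or days. How often this happens over other regions was not counted.

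In the stretch after Pcdhg, TET_KO and TET_WT at D0 differed by -0.23 with overlap, opposite in sign to Pcdha and Pcdhb, and the DNMT lines by 0.21 without overlap. The 16404 coding start tiles differed by 0.11 and 0.10 at D0, with overlap. The share of reads in the highest 10% of tiles, a measure of how sharply a library separates open from closed chromatin, was 24.7 to 27.3% in TET_WT and 24.1 to 26.2% in TET_KO at D0, and 24.6 to 27.0% in DNMT_WT and 24.9 to 29.8% in DNMT_KO. Its part in the cluster differences was not tested.

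Single tiles were tested with limma over the 186254 tiles that were in the highest 10% or held a gene end, 177 of them in the interval. A call is a Benjamini-Hochberg adjusted p under 0.05. Between TET_KO and TET_WT, 0 of the 177 tiles were called at D0, D1 or D2, where 0.0746%, 0.179% and 0.0585% of all tested tiles were called. Between DNMT_KO and DNMT_WT it was also 0 on each day, with 0%, 0.152% and 0.00805% of all tested tiles called. At an unadjusted p under 0.05, limma gave 18, 12 and 14 interval tiles for the TET lines and 15, 9 and 13 for the DNMT lines, and voom on the recovered reads called 0 in all 6 comparisons. As shares these were 10.2%, 6.78% and 7.91% for TET, against 8.52%, 8.64% and 6.84% of all tested tiles. For DNMT they were 8.47%, 5.08% and 7.34%, against 5.48%, 10.8% and 7.91%, so the interval was not above all tested tiles on every day.

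The medians of these tile differences followed the cluster levels. At D0 the 177 tiles had a median difference of 0.26 between TET_KO and TET_WT and of 0.21 between DNMT_KO and DNMT_WT, against 0.00 over all tested tiles in both. On the other days the medians were 0.02 and 0.09 for TET and 0.06 and -0.02 for DNMT. Among start tiles at D0, the TET difference had a median of 0.51 in Pcdha (12 of 14 above 0), 0.55 in Pcdhb (18 of 22) and 0.21 in Pcdhg (13 of 22). Above 0 were 49.1% of all tested tiles and 55.6% of coding start tiles. The DNMT difference at D0 had medians of 0.28 (10 of 14), 0.49 (17 of 22) and 0.25 (15 of 22), against 48.6% and 47.4%. At D1 the TET difference had medians of 0.05 (8 of 14), -0.07 (10 of 22) and 0.11 (12 of 22), against 50.1% and 55.3%. At D2 the TET difference had medians of 0.24 (12 of 14), 0.55 (18 of 22) and -0.05 (11 of 22), against 51.9% and 58.5%. These are descriptions of tiles that share libraries. The DNMT medians were 0.05, 0.02 and 0.11 at D1 and -0.10, 0.06 and 0.07 at D2.

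Single starts could not be resolved at this depth. The standard error of a difference had a median of 0.53 in Pcdha, 0.65 in Pcdhb and 0.43 in Pcdhg for groups of 3. The largest differences between lines, named after their values were seen, were all in Pcdhb. The start tile of Pcdhb5 differed by 1.97 ± 0.70 (SE) between TET_KO and TET_WT at D0 (95% interval 0.58 to 3.36, limma adjusted p = 0.349) and by 1.71 ± 0.78 at D2 (adjusted p = 0.671). That of Pcdhb21 differed by 1.80 ± 0.65 (SE) between DNMT_KO and DNMT_WT at D0 (limma adjusted p = 0.775), with 4 reads over the 3 DNMT_WT libraries and 13 over the DNMT_KO libraries. Pcdhb17 at D1 had the lowest adjusted p of these comparisons, with 2.01 ± 0.53 (SE, limma adjusted p = 0.121).

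The best covered start, Pcdhgc3, bounded the differences most closely. TET_KO and TET_WT differed by 0.19 ± 0.27 (SE) at D0, 0.21 ± 0.27 at D1 and 0.13 ± 0.30 at D2. DNMT_KO and DNMT_WT differed by -0.52 ± 0.27, 0.22 ± 0.27 and 0.21 ± 0.27 on the same days (limma adjusted p at least 0.852). For Pcdhac1 the 6 differences between lines lay between -0.37 and 0.23, and for Pcdhac2 between -0.13 and 1.21. The 1.21 ± 0.43 (SE) of Pcdhac2, in DNMT_KO at D0, had a limma adjusted p of 0.773.

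From D0 to D2, 0 of 177 tiles were called in TET_WT (9 at an unadjusted p under 0.05 with limma, and 1 call with voom) and 0 in DNMT_KO (10, and 0 with voom). In TET_KO and in DNMT_WT, 2 each were called. Over all tested tiles the shares called were 0.472%, 1.5%, 0.673% and 1.47% for TET_WT, DNMT_KO, TET_KO and DNMT_WT. The counts in the interval were near these shares. The median difference of the 177 tiles was 0.27 in DNMT_WT, and 0.10, 0.03 and 0.04 in TET_WT, TET_KO and DNMT_KO, against 0.00 to 0.03 over all tested tiles. In DNMT_WT 124 of the 177 (70.1%) were above 0, against 52.7% of all tested tiles.

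Of the 4 called tiles, the strongest was not in a protocadherin gene but inside Diaph1 (chr18:37860001-37862000). In DNMT_WT it held 16, 16 and 17 reads at D0 and 5, 4 and 2 at D2, or log2 levels of 0.69, 1.05 and 0.40 against -0.87, -0.92 and -1.98. All D2 libraries lay below all D0 libraries, and the level fell by 1.97 ± 0.36 (SE, limma adjusted p = 0.00158). It stayed called without any 1 of the 6 libraries, but not with voom (adjusted p = 0.0725) or in a fit of these groups alone (adjusted p = 0.224), over alternatives of 0.00195 to 0.224. In TET_WT the difference was -1.10 ± 0.36 (SE, adjusted p = 0.27), in TET_KO -0.85 ± 0.41 (adjusted p = 0.546) and in DNMT_KO -0.71 ± 0.36 (adjusted p = 0.45). DNMT_KO and DNMT_WT differed by 1.52 ± 0.36 (SE) at D2 (limma adjusted p = 0.162), and the interaction of line and day had an adjusted p of 0.759.

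The other call in DNMT_WT was in the last part of the Pcdhg cluster, past the start of Pcdhgc5 (chr18:37824001-37826000). It held 14, 11 and 16 reads at D0 and 26, 21 and 30 at D2, and the log2 levels were 0.49, 0.45 and 0.30 against 1.55, 1.59 and 2.10. The groups did not overlap and the level rose by 1.33 ± 0.32 (SE, limma adjusted p = 0.0212). With a library left out the adjusted p lay between 0.0371 and 0.125, and 4 of 6 such fits gave no call (without D0 library 1, 2 or 3 or D2 library 3). Of 6 other settings, 2 kept the call (adjusted p 0.012 to 0.159). DNMT_KO differed by 0.57 ± 0.32 (SE, adjusted p = 0.51), TET_KO by 0.37 ± 0.36 (adjusted p = 0.884) and TET_WT by 0.11 ± 0.32 (adjusted p = 1).

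In TET_KO the tile with the facing ends of Hdac3 and Rell2 (chr18:37954001-37956000) held 11, 15 and 13 reads at D0 and 31 and 48 at D2. Its log2 levels were -0.53, 0.32 and 0.46 against 1.51 and 1.35, without overlap, and it rose by 1.35 ± 0.32 (SE, limma adjusted p = 0.0273). At D0, TET_KO differed from TET_WT at this tile by -0.87 ± 0.28 (SE, adjusted p = 0.288). The call was lost without TET_KO library 1 at D0 or with 1 library at D2 (adjusted p up to 0.355), and in 3 of 6 other settings (adjusted p up to 0.288).

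The tile after the start tile of Pcdha6 (chr18:36968001-36970000) held 5, 3 and 3 reads in TET_KO at D0 and 11 and 16 at D2. The log2 levels were -1.86, -1.89 and -1.61 against 0.16 and -0.25, and the tile rose by 1.74 ± 0.43 (SE, limma adjusted p = 0.0372). This was the 1 called tile beside a protocadherin start tile, and the call was lost whichever of its 5 libraries was left out (adjusted p 0.0653 to 0.49). Of 6 other settings, 1 kept it (adjusted p 0.0497 to 0.408). TET_WT differed by 0.47 ± 0.38 (SE, adjusted p = 1), with groups that did not overlap. DNMT_WT differed by 1.06 ± 0.38 (SE, adjusted p = 0.187) and DNMT_KO by -0.33 ± 0.38 (adjusted p = 0.832).

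**Figure D5:**
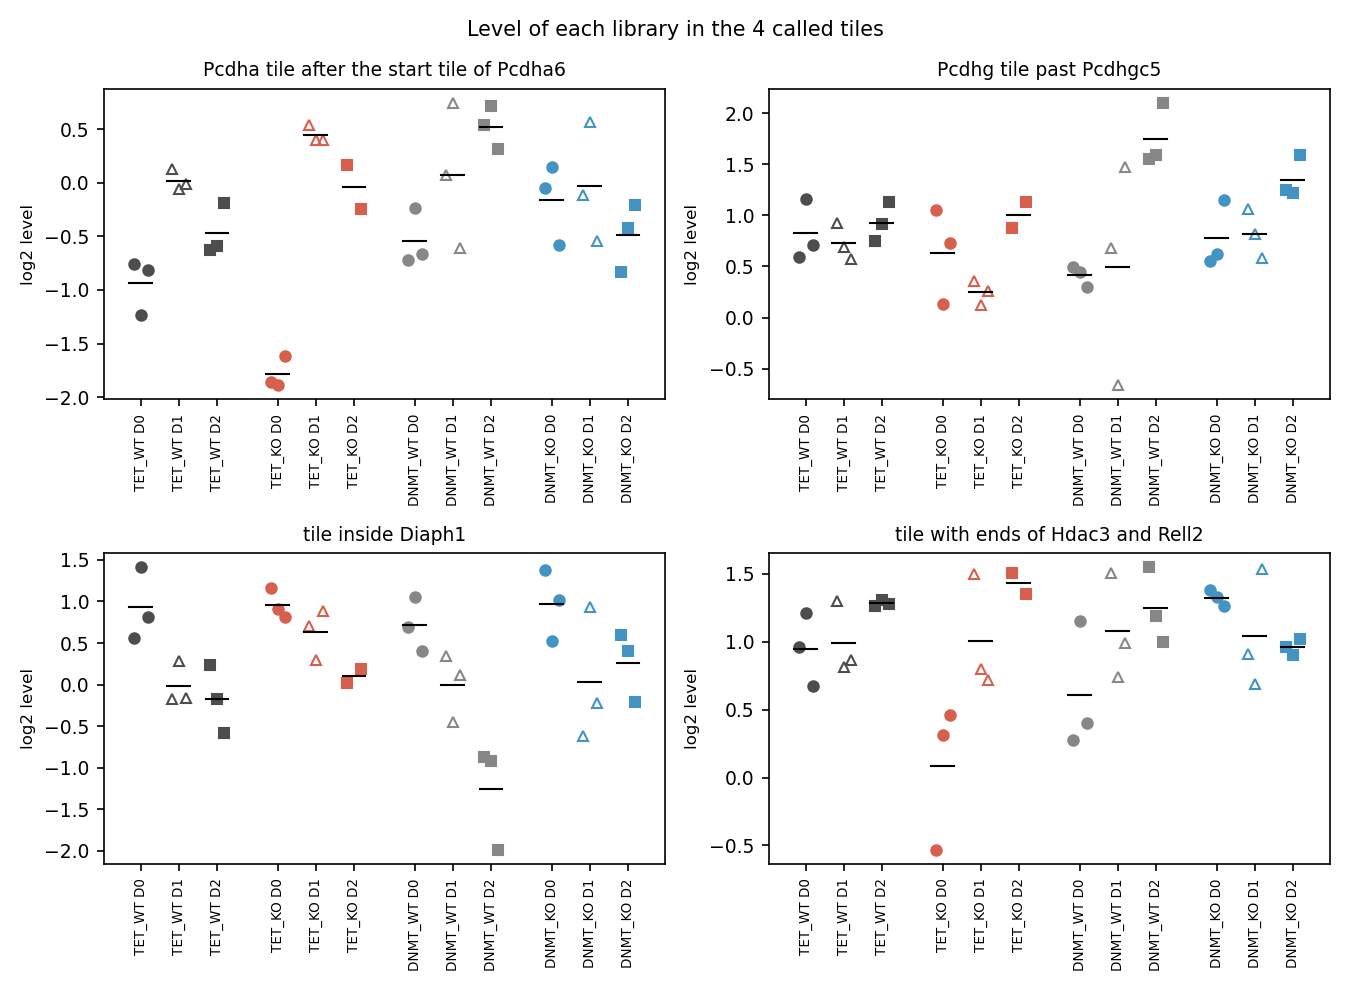
Quantile-normalised log2 level of each library (points; circles D0, open triangles D1, squares D2; bars, group means) in the 4 tiles called between D0 and D2. In DNMT_WT the Diaph1 tile is lower at D2 (-0.87 to -1.98) than at D0, and in TET_KO the Pcdha6 tile is lower at D0 (-1.61 to -1.89) than at D2.

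The difference in the change from D0 to D2 between a knockout and its parent was tested as an interaction. None of the 177 tiles was called in the TET family or in the DNMT family (limma, 9 and 13 at an unadjusted p under 0.05, and 0 with voom), where 0% and 0.000537% of all tested tiles were called. The unadjusted counts were 5.08% and 7.34% of the interval's tiles, against 3.26% and 6.07% of all tested tiles. A tile called in 1 line only was therefore not shown to differ between lines. Of the 58 start tiles none was called from D0 to D2. The lowest adjusted p was that of Pcdhga11 in DNMT_WT, with 1.41 ± 0.42 (SE, limma adjusted p = 0.084), followed by Pcdhb21 with 2.07 ± 0.65 (SE, adjusted p = 0.107). Pcdhgc4 differed by 1.16 ± 0.35 (SE, adjusted p = 0.188) in TET_WT, and it was the 1 tile that voom called in that line.

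Sums over 20-kb windows are deeper than tiles, and 54 windows of the interval were tested among 124932. Between lines 0 of the 54 were called on any day, where 1.66%, 1.76% and 0.623% of all windows were called for TET and 8e-04%, 0.0744% and 8e-04% for DNMT (limma, 9, 7 and 4 and then 12, 3 and 4 windows of the interval at an unadjusted p under 0.05). From D0 to D2 no window was called in TET_WT (4) or TET_KO (3), against 0.307% and 0.564% of all windows, and 1 each in DNMT_WT and DNMT_KO, against 1.03% and 0.8%. The interaction of line and day called 0 of the 54 in either family (limma, 1 window for TET and 4 for DNMT at an unadjusted p under 0.05), against 8e-04% and 0% of all windows. The share of all windows at that unadjusted threshold is not given here, so the unadjusted window counts are not read as a result.

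The window called in DNMT_WT (chr18:37980001-38000000) lies in Arap3. It held 56, 47 and 78 reads at D0 and 81, 83 and 64 at D2 and rose by 0.69 ± 0.18 (SE, limma adjusted p = 0.0243), a call lost in 4 of 6 fits that left out a library (adjusted p up to 0.206). The window called in DNMT_KO (chr18:37040001-37060000) lies in the Pcdha cluster between the starts of Pcdha12 and Pcdhac1. It held 9, 2 and 4 reads at D0 and 26, 13 and 14 at D2 and rose by 1.50 ± 0.37 (SE, limma adjusted p = 0.0227). That call was lost in 5 of 6 fits without 1 library (adjusted p up to 0.306). DNMT_KO had only 15 reads there in its 3 D0 libraries.

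Factors that act on these genes and the protocadherins outside the clusters were looked up by the tiles of their own starts. Of 17 cohesin, CTCF and silencing factors, 12 had a start tile that could be placed, with a median level of 1.30, from -0.37 in Setdb1, an H3K9 methyltransferase, to 2.46 in Ctcf. None was called in any of the 10 comparisons, with median differences between -0.13 and 0.29. Of 12 protocadherins outside the clusters, 9 were placed, from -1.18 in Pcdh9 to 1.98 in Pcdh17, with a median of 0.92. None of these was called either, and their median difference between TET_KO and TET_WT was 0.18, 0.60 and 0.87 at D0, D1 and D2. Of the 58 clustered starts, only that of Pcdhgc3 lay above this median.

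The 5 tested tiles elsewhere whose group means most closely followed the median of the 58 start tiles, by Pearson's r over the 12 groups, were 1 each within Med12l on chromosome 3 (r = 0.94), Tenm2 on chromosome 11 (0.92), Pcca on chromosome 14 (0.91) and Abraxas1 on chromosome 5 (0.91), and 1 on chromosome 17, 92.0 kb from Efhb (0.92). They were picked as the highest of all tested tiles, share libraries and depth with the locus, and are a description only. The 12 groups include the days and families that appear to have been processed differently, so likeness in processing and in accessibility cannot be told apart here.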

How the data were processed

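The authors deposited log2 RPKM values for 2-kb tiles of GRCm38, per the file headers. The submitters' processing notes name Bowtie2 2.4.1 for alignment, after trimming (Trim Galore 0.6.5, cutadapt 2.3); treatment of duplicates and any shift of read ends are not given in the sources used here. Values were whole multiples of 1 read in at least 99.9995% of tiles (tolerance 0.01 read, empty tiles at 0.9 read), and reads were recovered from these steps. Reads copied by PCR are not independent molecules, so read counts can vary by more than counting error.

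After quantile normalisation of the tested tiles, group means of 35 libraries were compared in limma 3.58.1 under R 4.3.3, using its trend option (23 residual degrees of freedom). The p-values are 2-sided and were adjusted by Benjamini and Hochberg over every tested tile or window. Windows needed a mean of 10 reads. Cluster levels used recovered reads per kb, scaled to all reads on autosomes and X. Replicate numbers did not pair libraries. Alternatives were values as deposited, no filter, 2 reads added, voom, only the groups compared, a replicate block and leaving out each library. Code was tested on simulated data. The members, lists and the rule for named genes were chosen with earlier results of these data known. The rule named the first and last gene, C-type genes, the 4 highest starts of each cluster, called tiles and windows with groups apart, and other genes of the interval. Gene starts came from RefSeq (GRCm38); the start tile holds the lower coordinate of a protocadherin gene. Start tiles elsewhere needed a listed strand, as did the set of coding start tiles, from which the interval was not excluded. No sequence of the locus was used here.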

Additional observations from a re-analysis of the deposited data

Results flagged for a closer look

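At D2 the level of the Pcdhg cluster differed in opposite directions in the families. It was lower in TET_KO than in TET_WT by 0.18 on the log2 scale (difference -0.18), with both TET_KO libraries below all 3 TET_WT libraries, and higher in DNMT_KO than in DNMT_WT by 0.17, with all 3 DNMT_KO libraries above all 3 DNMT_WT libraries. The difference between the families was not tested. At D2 the reads over tiles were 1.15 times the authors' library total in the TET family and 1.02 times in the DNMT family. The labels do not say whether the families were processed apart.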

How the results depend on the processing

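Depth limits all single tiles here, since a tile of the interval held a median of 2 to 15 reads per library and fold changes near 0 reads depend on the floor of 0.9 read. Replicate numbers did not pair the libraries: the correlation of same-numbered libraries ran from -0.10 to 0.12 over 28 pairs, and was over 0.1 in all pairs of 0 comparisons. With the replicate block, 3 tiles were called from D0 to D2 in TET_KO and 3 in DNMT_WT, against 2 and 2, and no other count of tiles or windows changed. Quantile normalisation removed shifts in the median of all tested tiles of up to -0.24 (TET_KO against TET_WT at D1 as deposited).

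Without a filter on tiles, 2 tiles were called between the TET lines at D1, 1 between the DNMT lines at D1, 0 from D0 to D2 in TET_KO and 1 in DNMT_WT. As deposited the last counts were 0 and 1, with voom 1 and 0 (and 1 in TET_WT), with only the groups compared 0 and 0 (and 1 in DNMT_KO), and with 2 reads added 1 in TET_KO. For windows without quantile normalisation they were 1 between the DNMT lines at D1 and 0 in DNMT_WT from D0 to D2. Leaving out 1 library gave 0 to 2 called tiles in TET_KO from D0 to D2, 1 to 3 in DNMT_WT, and 0 to 1 between the DNMT lines at D1, and 0 to 1 windows between the DNMT lines at D1, 0 to 2 in DNMT_WT and 0 to 1 in DNMT_KO from D0 to D2. The Pcdha difference between TET lines at D2 ran from 0.054 to 0.21. By the mean of deposited values, which at D1 carries the shift above, the TET difference at D1 was -0.27 in Pcdha, -0.070 in Pcdhb and -0.26 in Pcdhg, that of Pcdhg at D0 -0.087, and that of Pcdhg in DNMT_KO from D0 to D2 0.016 (-0.091 relative to background tiles). The cause of these moves was not tested.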
